A study of Mus musculus with 1 sample.

Results

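The 10 genes described here set whether a cell leaves the G1 phase of its cycle. They are the D-type cyclins *Ccnd1*, *Ccnd2* and *Ccnd3*, the E-type cyclins *Ccne1* and *Ccne2*, the cyclin-dependent kinases *Cdk4* and *Cdk6*, the kinase inhibitors *Cdkn1a* (p21) and *Cdkn1b* (p27), and the retinoblastoma gene *Rb1*. They were taken by symbol, and each was found once among the 22631 features of a control library of fetal mouse testis. RNA of single cells was read from testes labelled as wild type (WT) at embryonic day 14.5, pooled from 12 controls. The study deletes *Nr5a1* in Sertoli cells (SCs), and its methods name as controls fetuses with loxP-flanked *Nr5a1* alleles (*Nr5a1* L2/L2) that lack the Cre transgene, so the controls may carry these alleles in every cell, which the label WT does not say. The label gives that age alone, whereas the study's text also names the day before, and cells of both ages could not be told apart here. The mutant library was not analysed here. Dissociated cells were captured in droplets with the 10x Genomics Chromium system, in which each captured RNA molecule carries a unique molecular identifier (UMI) and is read at its 3′ end.

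Passage through G1 is driven by D-type cyclins bound to CDK4 or CDK6, which phosphorylate the retinoblastoma protein RB and so free E2F transcription factors. E-type cyclins, themselves E2F targets, then bind CDK2 and carry the cell into S phase. Inhibitors of the CIP/KIP family (p21, p27 and p57) bind cyclin-kinase complexes, and those of the INK4 family bind CDK4 and CDK6. In the fetal testis, germ cells (GCs) stop dividing and enter mitotic arrest in G1, and RB, p27 and the INK4 inhibitors are known as part of that arrest. SCs and interstitial cells continue to divide at this stage, and steroid-producing Leydig cells (LCs) divide little.

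Of 5421 barcodes with 72595083 UMIs, 3820 cells were kept after removal of barcodes with few genes, doublets and outliers. They held between 2299 and 53807 UMIs (median 12100). Clusters were named from marker lists and gave 250 germ-like cells (median 36104.5 UMIs), 854 Sertoli-like cells (14291), 312 Leydig-like cells (16177) and 1362 interstitial-like cells (9321.5), with 891 cells in 7 smaller classes and 151 cells in clusters 10 and 11 left unnamed. As a description that follows from the naming, which used these lists and the same limit, 9 of 10 germ, 10 of 11 Sertoli, 7 of 7 Leydig and 7 of 8 interstitial markers were seen in at least 25% of the cells of their class. Leydig-like cells passed the same limit for 7 of the 8 interstitial markers. Levels are given as CPM, the UMIs of a gene over all cells of a class per 1000000 UMIs of these cells, and the range in brackets is the 95% Poisson interval (exact). With a single library, and cells being no replicates, no test was made, and every interval covers counting error only. Germ-like cells held a mean of 35126 UMIs, Sertoli-like cells 15011, Leydig-like cells 18479 and interstitial-like cells 9967. A gene can therefore be lower in CPM and higher per cell in germ-like cells, and the comparisons with germ-like cells whose direction turned with the scale are named with their values. The outlier filter had an upper limit on UMIs, so values per germ-like cell depend on it. With outliers set at 5 median absolute deviations, 309 germ-like cells were kept (median 38217 UMIs).

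*Ccnd2* separated the classes most clearly among the D-type cyclins. Its level was 388 CPM (377 to 399) in Sertoli-like cells, 157 CPM (150.5 to 164) in interstitial-like cells, 127 CPM (118 to 137) in Leydig-like cells and 12.3 CPM (10.1 to 14.8) in germ-like cells. No intervals of the 4 classes overlapped. Sertoli-like cells had 31.5 times the germ-like level in CPM and 13.5 times per cell (5.82 against 0.432 UMIs), so the order held on both scales at its ends. Between Leydig-like and interstitial-like cells the direction depended on the scale, with 2.35 UMIs per cell in Leydig-like cells and 1.57 in interstitial-like cells. Free RNA puts some UMIs of every abundant gene into other droplets. The germ-like level of *Ccnd2* was 3.17% of the Sertoli-like level, while *Amh* and *Ptgds*, which define SCs, stood in germ-like cells at 0.567% and 0.706% of theirs. Unlike *Amh* and *Ptgds*, *Ccnd2* was also abundant outside Sertoli-like cells, with 240 CPM in peritubular myoid-like cells. Free RNA can come from all these classes, so percentages of the Sertoli-like level do not compare the genes on equal terms. The part of free RNA in the germ-like level was not tested beyond this.

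The D-type cyclin *Ccnd3* was also lowest in CPM in germ-like cells, at 44.1 CPM (39.8 to 48.7). It stood at 82.8 CPM (77.9 to 88.0) in Sertoli-like cells, 170.2 CPM (160 to 181) in Leydig-like cells and 238 CPM (230.0 to 246) in interstitial-like cells, again without overlap. The position of Sertoli-like and germ-like cells turned with the scale, since germ-like cells held 1.55 UMIs of *Ccnd3* each and Sertoli-like cells 1.24. *Ccnd1* was low in all 4 classes, with 10.1 CPM (8.14 to 12.5) in germ-like, 8.74 CPM (7.19 to 10.5) in Sertoli-like, 5.72 CPM (3.94 to 8.04) in Leydig-like and 13.8 CPM (11.9 to 15.9) in interstitial-like cells. In order of level (interstitial-like, germ-like, Sertoli-like, Leydig-like) neighbours overlapped throughout, while classes further apart (interstitial-like from Sertoli-like and Leydig-like cells, germ-like from Leydig-like cells) did not. Per cell, germ-like cells had the highest *Ccnd1* value, 0.356 UMIs against 0.106 to 0.137 in the other 3 classes.

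**Figure D1:**
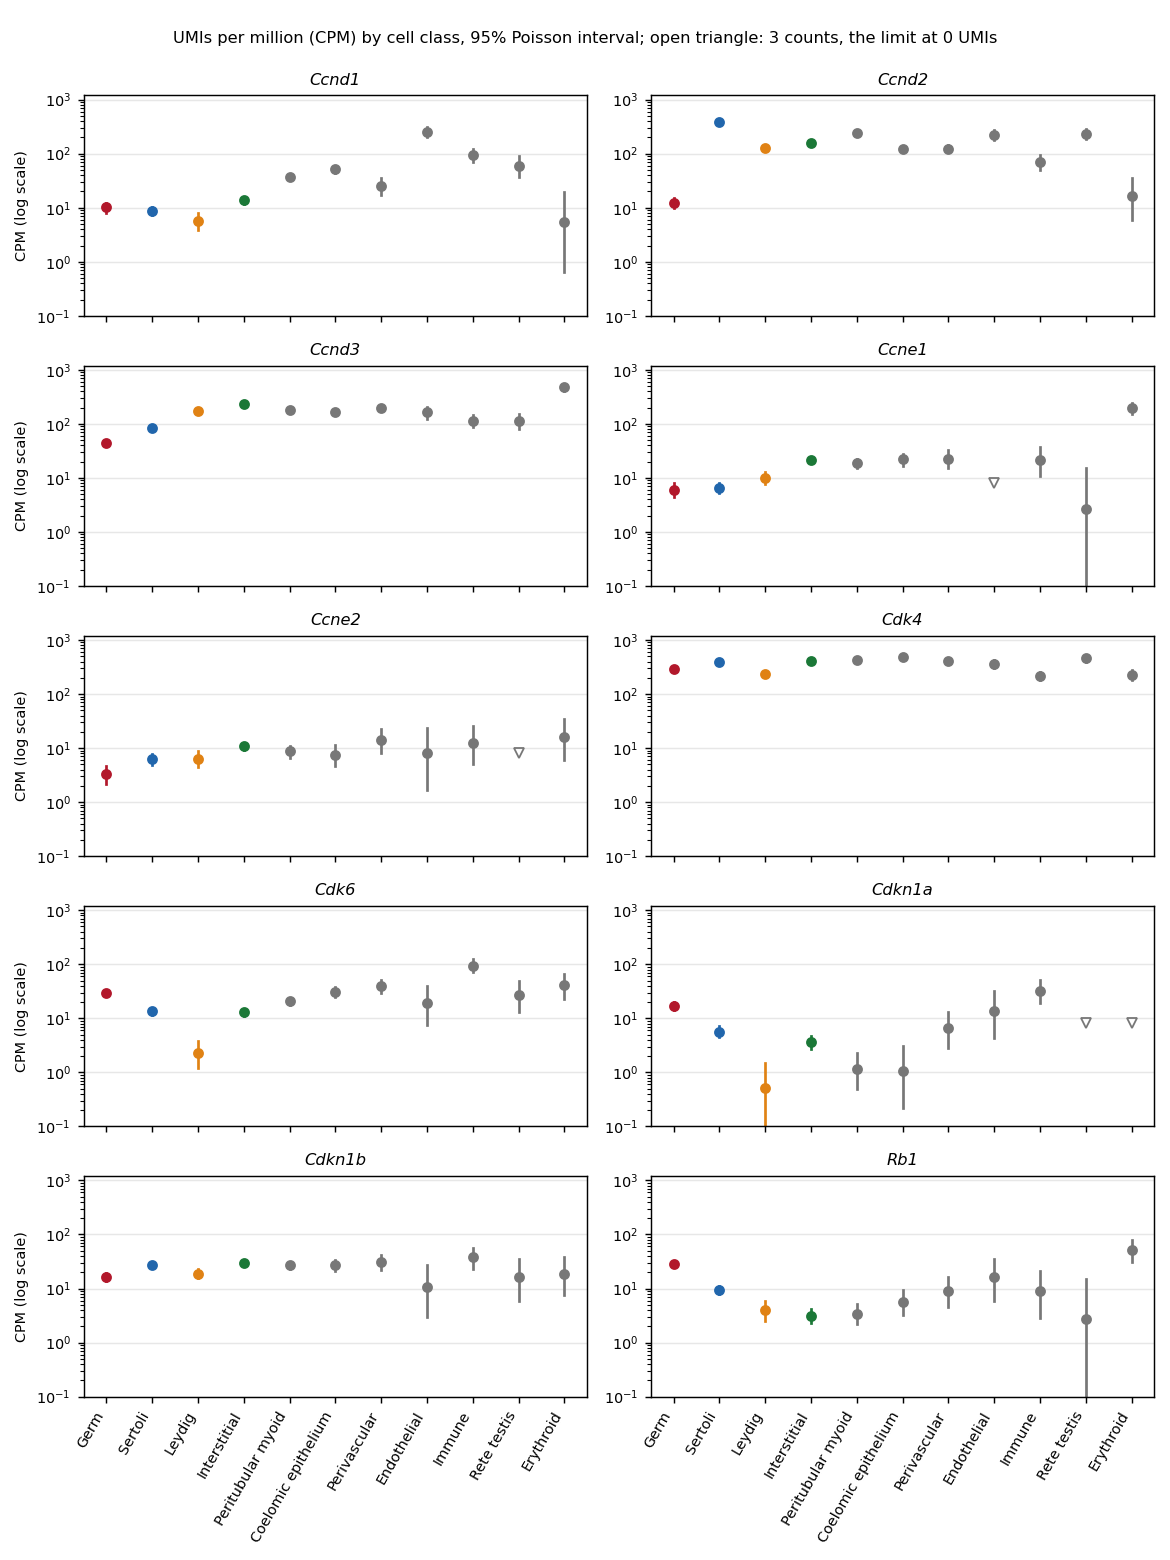
Level of each of the 10 genes in 11 cell classes, in CPM on a log axis; points are summed levels, bars exact Poisson 95% intervals and open triangles the limit of 3 counts where no UMI was seen. *Ccnd2* was lowest in germ-like cells (12.3 CPM) among the 4 coloured classes and highest in Sertoli-like cells (388 CPM), whereas *Cdk6*, *Cdkn1a* and *Rb1* were highest in germ-like cells of these 4.

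UMIs count molecules at the 3′ end whatever the length of the transcript, and the D-type cyclins were also set beside each other within a class. Whether different genes are captured equally well was not examined, so the values are shares of UMIs alone. *Ccnd2* made up 80.9% of the D-type cyclin UMIs of Sertoli-like cells, 41.99% of those of Leydig-like cells, 38.4% of those of interstitial-like cells and 18.5% of those of germ-like cells. *Ccnd3* was the main D-type cyclin by UMIs in germ-like cells (66.3%), interstitial-like cells (58.2%) and Leydig-like cells (56.1%). The 3 together came to 66.5 CPM in germ-like cells and 479.5 CPM in Sertoli-like cells, and to 2.34 and 7.20 UMIs per cell, so germ-like cells held less D-type cyclin RNA on both scales.

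The D-type cyclins were then counted cell by cell after thinning each cell to 5000 UMIs, which removes the difference in depth and left 246 germ-like, 839 Sertoli-like, 309 Leydig-like and 1298 interstitial-like cells. No D-type cyclin UMI was found in 72.0% of germ-like cells (exact 95% interval 65.9 to 77.5%). That share was 18.7% (16.1 to 21.5%) in Sertoli-like cells, 28.5% (23.5 to 33.9%) in Leydig-like cells and 18.1% (16.0 to 20.3%) in interstitial-like cells. At full depth a *Ccnd3* UMI was seen in 75.2% of germ-like and 66.2% of Sertoli-like cells. A cell without a UMI at 5000 UMIs may therefore still hold D-type cyclin RNA. Patterns with 1 cyclin alone depend on depth as well. At full depth a *Ccnd2* UMI was seen in 88.9% of Sertoli-like cells, so most of them held both *Ccnd2* and *Ccnd3*. At 5000 UMIs *Ccnd2* alone was the most frequent pattern of Sertoli-like cells, at 46.8% (43.4 to 50.3%), and was found in 3.66% (1.69 to 6.83%) of germ-like cells. At that depth *Ccnd3* alone (36.6%) and *Ccnd2* with *Ccnd3* (26.9%) were the most frequent in interstitial-like cells. All 3 cyclins together were seen in 7.59% of coelomic epithelium-like, 7.59% of peritubular myoid-like and 2.54% of interstitial-like cells, and in 13.8% (3.89 to 31.7%) of 29 endothelial-like cells. They were seen in 0 of 246 germ-like cells (exact interval up to 1.49%). Sertoli-like cells (0.596%, 0.194 to 1.39%) and Leydig-like cells (0.324%, 0.008 to 1.79%) overlapped that interval. The share was 2.97 to 3.85% in perivascular-like, immune-like and rete testis-like cells, from 1 to 3 cells each.

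**Figure D2:**
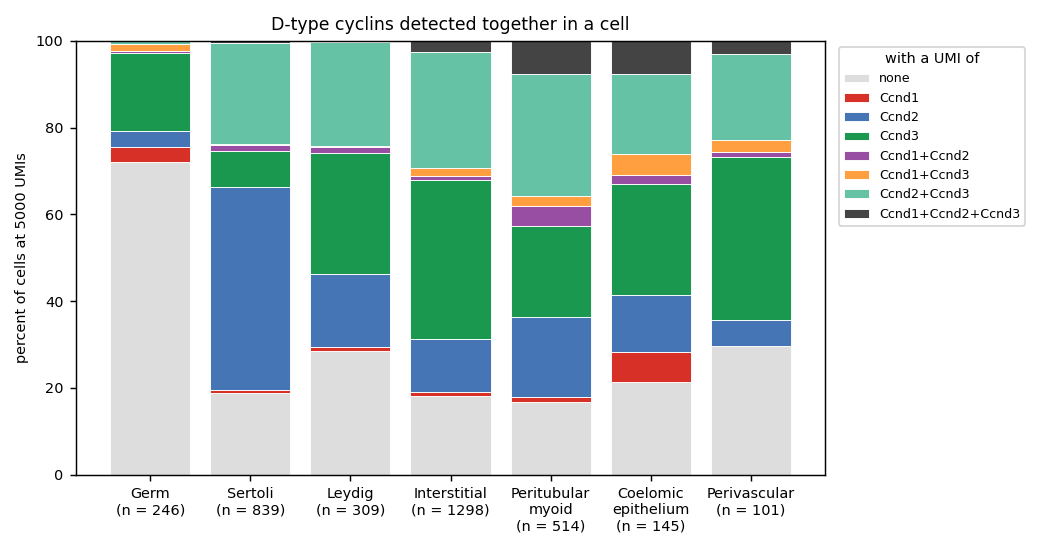
Share of cells (percent, bars stacked to 100) with a UMI of each combination of D-type cyclins, after thinning to 5000 UMIs per cell, in the 7 classes with 100 or more such cells. At this depth no D-type cyclin was seen in 72.0% of germ-like cells, and *Ccnd2* alone was the most frequent pattern in Sertoli-like cells (46.8%).

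The E-type cyclins were low in every one of the 4 classes. *Ccne1* stood at 21.5 CPM (19.1 to 24.1) in interstitial-like cells, 10.1 CPM (7.64 to 13.0) in Leydig-like cells, 6.63 CPM (5.30 to 8.20) in Sertoli-like cells and 6.04 CPM (4.52 to 7.89) in germ-like cells. Interstitial-like cells stood apart from the rest, whose neighbours overlapped. *Ccne2* had 10.8 CPM (9.08 to 12.6) in interstitial-like cells, 6.42 CPM (4.52 to 8.85) in Leydig-like cells, 6.24 CPM (4.95 to 7.77) in Sertoli-like cells and 3.30 CPM (2.21 to 4.74) in germ-like cells. Germ-like cells lay below the interval of Sertoli-like cells, and Leydig-like and Sertoli-like cells could not be separated for *Ccne2*, with a log2 ratio of -0.04 (-0.62 to 0.56) of Sertoli-like over Leydig-like cells. Per cell the lower level of germ-like than interstitial-like cells was gone, with 0.212 against 0.214 UMIs for *Ccne1* and 0.116 against 0.107 for *Ccne2*. Against Leydig-like (0.186 UMIs) and Sertoli-like cells (0.0995 UMIs) *Ccne1* was higher per germ-like cell, with an interval that included equality for Leydig-like cells. The 250 bases before the RefSeq start of *Ccne1* (minus strand of GRCm38.p6) are shown because *Ccne1* differed within all 4 classes with the share of S and G2/M phase genes, as described with the tertiles of cells. Capitals mark GC boxes (GGGCGG on either strand), of which there were 4.

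*Ccne1*, chr7:38107491-38107740: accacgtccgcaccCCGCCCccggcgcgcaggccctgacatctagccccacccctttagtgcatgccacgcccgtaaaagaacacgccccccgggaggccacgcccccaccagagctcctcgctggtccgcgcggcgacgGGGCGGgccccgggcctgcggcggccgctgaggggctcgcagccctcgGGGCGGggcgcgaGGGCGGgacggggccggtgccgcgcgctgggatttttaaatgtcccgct

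The kinases differed from each other. *Cdk4*, a widely used partner of D-type cyclins, was abundant in all 4 classes, at 401 CPM (389.95 to 411) in interstitial-like, 390.4 CPM (379.6 to 401) in Sertoli-like, 295 CPM (284 to 307) in germ-like and 236 CPM (223 to 249) in Leydig-like cells. The first pair overlapped and the rest were apart, but no pair of classes reached a 2-fold difference. Germ-like cells had the most *Cdk4* per cell, 10.4 UMIs against 5.86 in Sertoli-like and 3.99 in interstitial-like cells, which turns the order of these classes. Of the 4 classes, *Cdk6* was highest in germ-like cells on both scales, with 28.9 CPM (25.5 to 32.7) and 1.02 UMIs per cell. It stood at 13.4 CPM (11.5 to 15.6) in Sertoli-like, 12.8 CPM (11.0 to 14.9) in interstitial-like and 2.25 CPM (1.20 to 3.86) in Leydig-like cells, the last from 13 UMIs. Sertoli-like and interstitial-like cells overlapped in CPM.

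Of the CIP/KIP inhibitors, *Cdkn1a* was the higher in germ-like cells and *Cdkn1b* was not. *Cdkn1a*, a known p53 target, stood at 16.7 CPM (14.1 to 19.7) in germ-like, 5.69 CPM (4.46 to 7.16) in Sertoli-like and 3.61 CPM (2.67 to 4.77) in interstitial-like cells. In Leydig-like cells 3 UMIs were seen, 0.520 CPM (0.107 to 1.52), and the log2 ratio of germ-like over Leydig-like cells was 5.01 (3.43 to 7.30). At 5000 UMIs per cell, 8.94% (5.69 to 13.2%) of germ-like cells had a *Cdkn1a* UMI against 2.50% (1.56 to 3.80%) of Sertoli-like and 1.16% (0.648 to 1.90%) of interstitial-like cells. At full depth the shares were 36.4%, 3.98% and 2.50%. The 73 UMIs of Sertoli-like cells came from 3.98% of the cells, and up to 9 were in a single cell. *Cdkn1b* was 29.2 CPM (26.4 to 32.3) in interstitial-like, 27.7 CPM (24.9 to 30.7) in Sertoli-like, 18.7 CPM (15.4 to 22.6) in Leydig-like and 16.3 CPM (13.7 to 19.2) in germ-like cells. Interstitial-like and Sertoli-like cells overlapped, as did Leydig-like and germ-like cells. Per cell the order turned, with 0.572 *Cdkn1b* UMIs in germ-like, 0.416 in Sertoli-like, 0.346 in Leydig-like and 0.291 in interstitial-like cells. *Cdkn1a* thus made up 50.7% of the UMIs of both inhibitors in germ-like cells, 17.1% in Sertoli-like, 11.0% in interstitial-like and 2.70% in Leydig-like cells.

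The 250 bases before the RefSeq starts of both inhibitors (plus strand of GRCm38.p6) are shown because their levels went different ways between germ-like and Sertoli-like cells in CPM. *Cdkn1a* has 2 annotated starts. Before the upstream start of *Cdkn1a*, capitals mark a pair of CATG cores 6 bases apart, the spacing of the p53 consensus, which begins 48 bases before the start. In the other sequences capitals mark GC boxes, 2 before the downstream start of *Cdkn1a* and 1 before *Cdkn1b*.
*Cdkn1a*, upstream start, chr17:29090729-29090978: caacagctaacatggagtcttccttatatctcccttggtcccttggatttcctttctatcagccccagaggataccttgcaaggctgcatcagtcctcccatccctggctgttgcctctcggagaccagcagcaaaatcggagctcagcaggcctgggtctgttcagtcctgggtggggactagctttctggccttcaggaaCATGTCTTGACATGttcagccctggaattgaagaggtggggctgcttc
*Cdkn1a*, downstream start, chr17:29093519-29093768: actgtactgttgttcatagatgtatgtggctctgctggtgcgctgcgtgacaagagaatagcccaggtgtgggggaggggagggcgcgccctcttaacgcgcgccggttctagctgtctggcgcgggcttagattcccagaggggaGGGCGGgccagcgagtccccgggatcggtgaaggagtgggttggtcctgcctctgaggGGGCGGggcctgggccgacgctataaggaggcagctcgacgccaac
*Cdkn1b*, chr6:134920151-134920400: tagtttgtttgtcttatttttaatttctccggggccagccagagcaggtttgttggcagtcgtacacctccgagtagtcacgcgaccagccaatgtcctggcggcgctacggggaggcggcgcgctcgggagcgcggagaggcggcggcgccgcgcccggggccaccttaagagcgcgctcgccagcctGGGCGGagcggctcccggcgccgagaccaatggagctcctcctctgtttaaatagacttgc

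Of all 32851 RefSeq windows of this length, 32.7% held a GC box and 0.490% the spaced CATG pair. Windows were found for 6 of the 10 genes (*Ccnd3*, *Ccne1*, *Cdk4*, *Cdk6*, *Cdkn1a* and *Cdkn1b*). None of their 8 windows held the E2F letters TTTCCCGC, TTTCGCGC, TTTGGCGC or TTTGCCGC, which 1.86% of all windows held on either strand. A match in letters is no measure of binding, and its absence concerns this window alone.

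*Rb1*, whose protein holds E2F factors back until it is phosphorylated, was highest of the 4 classes in germ-like cells on both scales. It stood at 28.6 CPM (25.2 to 32.3) in germ-like, 9.52 CPM (7.90 to 11.4) in Sertoli-like, 3.99 CPM (2.53 to 5.99) in Leydig-like and 3.17 CPM (2.29 to 4.27) in interstitial-like cells, and only the last pair overlapped. Germ-like cells held 1.004 UMIs of *Rb1* each and interstitial-like cells 0.0316. At equal depth of 5000 UMIs, 11.0% (7.36 to 15.6%) of germ-like cells and 1.69% (1.07 to 2.55%) of interstitial-like cells had a UMI, and at full depth 60.8% and 3.08%.

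The genes were next compared between pairs of classes. A gene was counted as different where its levels were at least 2-fold apart, the 95% interval of the ratio excluded 1, and at least 50 UMIs were present over both classes. Between germ-like and Sertoli-like cells 4 of the 10 genes were counted, against 49.7% of the 11307 genes compared, so their number was not above the background. *Rb1* (3.00-fold), *Cdkn1a* (2.94-fold) and *Cdk6* (2.16-fold) were higher in germ-like cells, a direction held by 18.2% of all genes, and *Ccnd2* was lower, as 31.5% of all genes were. The median log2 ratio was -0.27 over the 10 genes and -0.27 over all genes. Against Leydig-like cells 5 genes were counted (background 52.8%, with 24.9% higher and 27.9% lower), with *Cdk6* 12.8-fold and *Rb1* 7.16-fold higher in germ-like cells, *Cdkn1a* higher as well, and *Ccnd2* 10.4-fold and *Ccnd3* 3.86-fold lower. Against interstitial-like cells 7 genes were counted (background 52.6%, with 20.1% higher and 32.5% lower in germ-like cells). *Rb1* (9.02-fold), *Cdkn1a* (4.64-fold) and *Cdk6* (2.26-fold) were higher and *Ccnd2* (12.8-fold), *Ccnd3* (5.40-fold), *Ccne1* (3.56-fold) and *Ccne2* (3.26-fold) lower in germ-like cells, the last pair only in CPM. Per cell *Ccnd2* was 3.62-fold lower, and *Ccnd3* 1.53-fold lower, which is under the 2-fold limit. The ratios of *Ccne1* and *Ccne2* turned over (0.61 and 0.999 on the log2 scale) where cells were clustered after log normalization without regression of cell cycle scores. The cells named interstitial-like differed there. Clusters of 372, 273 and 262 cells nearest the interstitial markers fell below the naming limit (mean log2 ratios of 0.82, 0.994 and 0.926) and were left unnamed. Clusters of 423 and 294 cells kept the name.

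The same 3 genes, *Rb1*, *Cdkn1a* and *Cdk6*, were thus counted as higher in germ-like cells in each of the 3 comparisons, and *Ccnd2* as lower in each. These comparisons share the germ-like cells. On the scale of UMIs per cell, 5 of the 10 genes turned their direction between germ-like and Sertoli-like cells (*Ccnd3*, *Ccne1*, *Ccne2*, *Cdk4* and *Cdkn1b*), 3 of them with intervals that excluded equality on both scales. *Ccnd2*, *Cdk6*, *Cdkn1a* and *Rb1* kept theirs, with 13.5-fold less *Ccnd2* and 5.04-fold more *Cdk6*, 6.88-fold more *Cdkn1a* and 7.03-fold more *Rb1* per germ-like cell. How many of all genes turned with the scale was not counted.

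**Figure D3:**
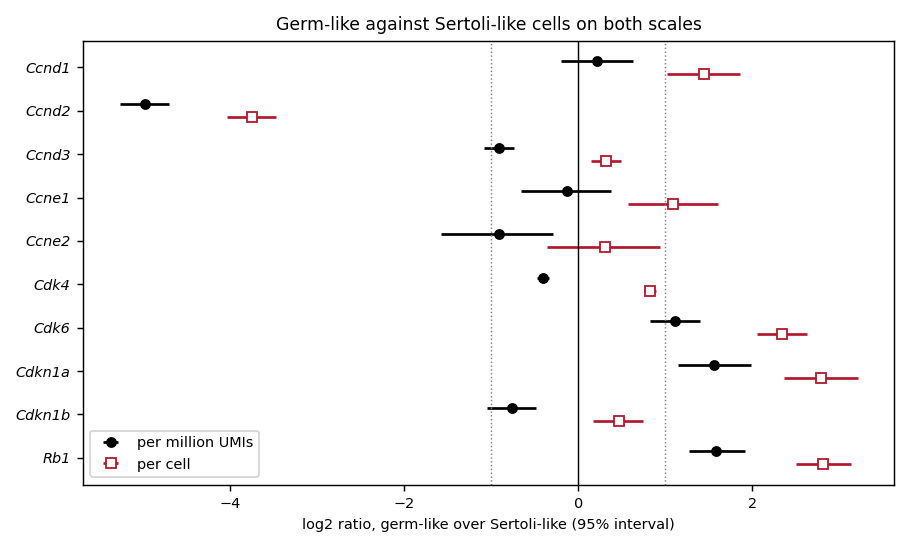
Log2 ratio of germ-like over Sertoli-like cells for each gene, in CPM (filled circles) and per cell (open squares), with 95% intervals; dotted lines mark a 2-fold difference. *Ccnd2* was lower and *Cdk6*, *Cdkn1a* and *Rb1* higher in germ-like cells on both scales, and 5 genes lay on different sides of 0 on the 2 scales.

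Among the somatic classes, Sertoli-like against Leydig-like cells gave 5 of 10 genes (background 30.5% of 10963 genes, with 19.7% higher and 10.8% lower). *Cdkn1a* (log2 ratio 3.45, 1.85 to 5.76), *Cdk6* (5.95-fold), *Ccnd2* (3.05-fold) and *Rb1* (2.39-fold) were higher and *Ccnd3* 2.05-fold lower in Sertoli-like cells. Between Sertoli-like and interstitial-like cells 4 were counted (background 32%, with 16.4% higher and 15.6% lower). *Rb1* (3.00-fold) and *Ccnd2* (2.47-fold) were higher, and *Ccne1* (3.24-fold) and *Ccnd3* (2.87-fold) lower, in Sertoli-like cells, with a median log2 ratio of -0.06 over the 10 genes and 0.03 over all genes. Leydig-like against interstitial-like cells also gave 4 (background 27.9%, with 9.48% higher and 18.4% lower), all lower in Leydig-like cells, with *Cdkn1a* at a log2 ratio of -2.79 (-5.12 to -1.16), *Cdk6* 5.68-fold, *Ccnd1* 2.41-fold and *Ccne1* 2.14-fold lower. In that comparison the median log2 ratio was -0.75 over the 10 genes and -0.21 over all genes, but per cell 5 of the 10 genes lay on the other side of 0. *Cdk4* and *Cdk6* differed little between Sertoli-like and interstitial-like cells, with log2 ratios of -0.04 (-0.09 to 0.02) and 0.07 (-0.25 to 0.38).

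The Leydig-like class held cells of different kinds, and the G1 genes differed between them. Cluster 8 (128 cells) was led by the steroidogenic genes *Cyp11a1*, *Cyp17a1* and *Star*, and cluster 6 (184 cells) by *Nppc* and *Vsnl1*. Cluster 8 had 3 UMIs of *Ccne1* (0.935 CPM), 2 of *Ccne2* (0.624 CPM) and 1 of *Cdk6* (0.312 CPM), whereas cluster 6 had 21.5 CPM, 13.7 CPM and 4.69 CPM. Its log2 ratios against cluster 6 were -4.52 (-6.84 to -2.90) for *Ccne1*, -4.46 (-7.56 to -2.50) for *Ccne2* and -3.91 (-9.33 to -1.15) for *Cdk6*. *Ccnd1* (3.34-fold), *Cdkn1b* (2.62-fold), *Cdk4* (2.08-fold) and *Ccnd3* (1.97-fold) were lower in cluster 8 too. For *Ccnd2*, at 127.2 and 127.4 CPM, the interval of the log2 ratio was -0.22 to 0.21, and *Rb1* could not be told apart (4.36 and 3.52 CPM). No *Cdkn1a* UMI was seen in cluster 8, which allows up to 0.935 CPM (3 counts). These comparisons are in CPM, and cells of cluster 8 held more UMIs (mean 25059) than those of cluster 6 (13902). Differences in CPM can therefore shrink or turn per cell. The 3 D-type cyclins together stood at 249 CPM in cluster 8 and 371 CPM in cluster 6, but at 6.23 and 5.16 UMIs per cell. With cluster 6 left out of the Leydig-like class, 9 of the 10 genes were counted as higher in Sertoli-like than in Leydig-like cells (27% of all genes were, without that cluster), and 7 as lower in Leydig-like than in interstitial-like cells (27.2%). *Mki67*, a marker of dividing cells, stood at 1.87 CPM in cluster 8 and 107 CPM in cluster 6. The CIP/KIP inhibitor *Cdkn1c* (p57), looked at after its values were seen, had 1956 CPM in Leydig-like cells against 99.3 CPM in Sertoli-like, 113 CPM in interstitial-like and 86.5 CPM in germ-like cells, and was higher in cluster 8 (2666 CPM) than in cluster 6 (1065 CPM).

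Within the interstitial-like class, cluster 5 (202 cells) was led by histone genes and other genes of DNA replication. Against the largest cluster 0 (870 cells) it had 3.26-fold more *Ccne1* (49.6 against 15.2 CPM), 3.11-fold more *Ccne2* (25.3 against 8.15 CPM), 1.52-fold more *Cdkn1b* (40.4 against 26.6 CPM) and 1.26-fold more *Cdk4* (487 against 387 CPM). *Ccnd2* went the other way, with 82.6 CPM in cluster 5 and 182 CPM in cluster 0, and *Ccnd3* slightly so (219 and 242 CPM; log2 ratio -0.15, -0.28 to -0.01). These ratios too are in CPM, and cells of cluster 5 held more UMIs (mean 13481) than those of cluster 0 (9592). *Ccnd1*, *Cdk6*, *Cdkn1a* and *Rb1* had ratios whose intervals included 1. With cluster 5 left out, 2 genes in place of 4 were counted as lower in Leydig-like than in interstitial-like cells (16.3% of all genes without that cluster). Cluster 3 (290 cells), led by *Ntng1* and *Sostdc1*, differed from cluster 0 by more *Cdkn1a* (6.38 against 2.52 CPM) and less *Ccne2* (3.59 against 8.15 CPM). These levels rest on 16 and 21 UMIs of *Cdkn1a* and 9 and 68 UMIs of *Ccne2*. In the interstitial-like class up to 8 *Cdkn1a* UMIs were in a single cell. Smaller differences of cluster 3 from cluster 0 were seen for *Ccnd2* (log2 ratio -0.23, -0.40 to -0.07) and *Cdk4* (-0.14, -0.25 to -0.03). Of the 10 genes, 7 were among the variable genes used for clustering (all but *Cdk4*, *Cdkn1b* and *Rb1*), so differences between clusters are descriptions of cells grouped partly by them. The same holds for the classes, which are made of these clusters. Clustering was repeated with the 10 genes and the S and G2/M lists left out of the variable genes. Of the log2 ratios between classes, 14 were then counted as moved and 46 as the same.

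**Figure D4:**
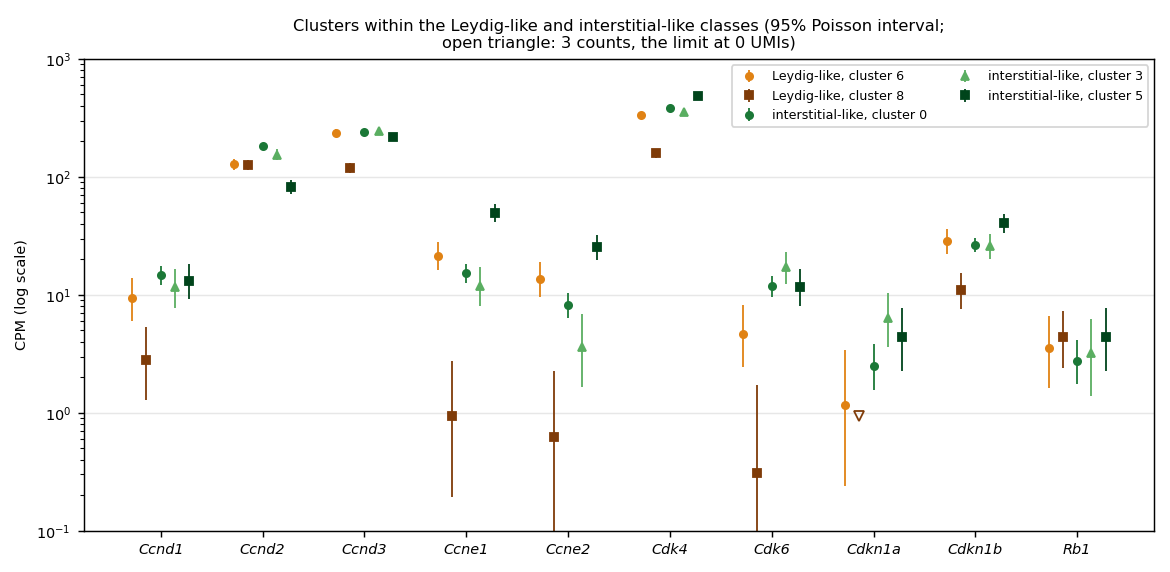
Level of each gene in the 2 Leydig-like and 3 interstitial-like clusters, in CPM on a log axis, with exact Poisson 95% intervals and an open triangle for the limit of 3 counts at 0 UMIs. *Ccne1* and *Ccne2* were low in the steroidogenic cluster 8 (0.935 and 0.624 CPM) and highest in the interstitial-like cluster 5 (49.6 and 25.3 CPM).

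Cells of each class were also split into tertiles by the share of their UMIs in the 96 S and G2/M phase genes of Seurat, with the 10 genes left out. A tertile is a range of a score and not a cell type. Levels in tertiles are in CPM alone. A difference can shrink, grow or turn per cell where tertiles differ in UMIs per cell. The median share was 0.69% in germ-like (range 0.38 to 2.02%), 0.39% in Sertoli-like (0.09 to 2.40%), 0.20% in Leydig-like (0.06 to 3.24%) and 0.43% in interstitial-like cells (0.04 to 4.26%), and 122 of the 250 germ-like cells lay within 10% of a boundary. *Ccne1* was 10.5-fold higher in the highest than in the lowest tertile of interstitial-like cells (40.6 against 3.86 CPM; log2 interval 2.62 to 4.29). The difference was 10.2-fold in Sertoli-like cells (11.2 against 1.10 CPM), 24.5-fold in Leydig-like cells (34.5 against 1.41 CPM, the latter from 3 UMIs; log2 interval 2.99 to 6.94) and 2.88-fold in germ-like cells (11.2 against 3.90 CPM; log2 interval 0.49 to 2.67). *Ccne2* went the same way in the somatic classes, with log2 ratios of 2.98 (1.68 to 4.66) in Sertoli-like, 4.46 (2.50 to 7.57) in Leydig-like and 4.67 (3.08 to 6.97) in interstitial-like cells. In germ-like cells its log2 ratio was 0.29 (-1.04 to 1.66). The Leydig-like tertiles mix clusters 6 and 8, whose levels of both genes differ, so the clusters were also split alone. Within cluster 6 *Ccne1* stood at 49.5 CPM in the highest and 1.29 CPM in the lowest tertile (log2 ratio 5.27, 2.72 to 10.6), and *Ccne2* at 31.3 CPM and 0 UMIs. Within cluster 8 each tertile held 1 UMI of *Ccne1* (log2 ratio -0.15, -6.45 to 6.14), and no *Ccne2* UMI was seen in the highest, so no difference was detectable there at this depth.

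*Cdk4* was higher in the highest tertile of the somatic classes, 2.45-fold in Leydig-like, 1.47-fold in interstitial-like and 1.23-fold in Sertoli-like cells, and its log2 ratio in germ-like cells was 0.08 (-0.06 to 0.22). Within clusters 6 and 8 alone the log2 ratio of *Cdk4* was 1.08 (0.82 to 1.35) and 0.54 (0.20 to 0.88), the latter 0.24 (-0.10 to 0.58) when tertiles were drawn at 5000 UMIs per cell. *Cdkn1b* was lower in the highest tertile of germ-like cells (12.0 against 20.6 CPM; log2 ratio -0.78, -1.44 to -0.14) and higher in that of interstitial-like cells (40.6 against 22.1 CPM; 0.88, 0.51 to 1.27). In the whole Leydig-like class its log2 ratio was 1.16 (0.44 to 1.90), but the interval included 0 within cluster 6 (0.65, -0.29 to 1.65) and within cluster 8 (-0.15, -1.44 to 1.13). *Cdkn1a* was lower in the highest tertile of Sertoli-like cells (3.88 against 10.2 CPM; -1.39, -2.25 to -0.57). *Ccnd2* was lower in the highest tertile of interstitial-like cells (91.7 against 169 CPM). In germ-like cells its log2 ratio was -1.05 (-1.94 to -0.20; 6.53 against 13.5 CPM), but -0.49 (-1.26 to 0.25; 9.72 against 13.7 CPM) with tertiles drawn at 5000 UMIs per cell. That of *Cdkn1a* in germ-like cells was 0.44 (-0.12 to 1.005) and at 5000 UMIs 0.83 (0.22 to 1.45). *Ccnd1* was higher in the highest tertile of germ-like cells (18.5 against 7.80 CPM; 1.24, 0.50 to 2.04) and interstitial-like cells (14.8 against 7.45 CPM; 0.99, 0.35 to 1.68). *Ccnd3* was higher in the highest tertile of germ-like cells (0.49, 0.12 to 0.87). In the Leydig-like class its log2 ratio was 0.90 (0.68 to 1.13). The interval included 0 within cluster 6 (0.24, -0.05 to 0.53) and within cluster 8 (0.14, -0.22 to 0.50). With tertiles at 5000 UMIs it excluded 0 within cluster 8 (0.54, 0.14 to 0.93). In Sertoli-like and interstitial-like cells the interval for *Ccnd3* included 0. For *Rb1* and *Cdk6* the interval of the log2 ratio included 0 in all 4 classes.

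**Figure D5:**
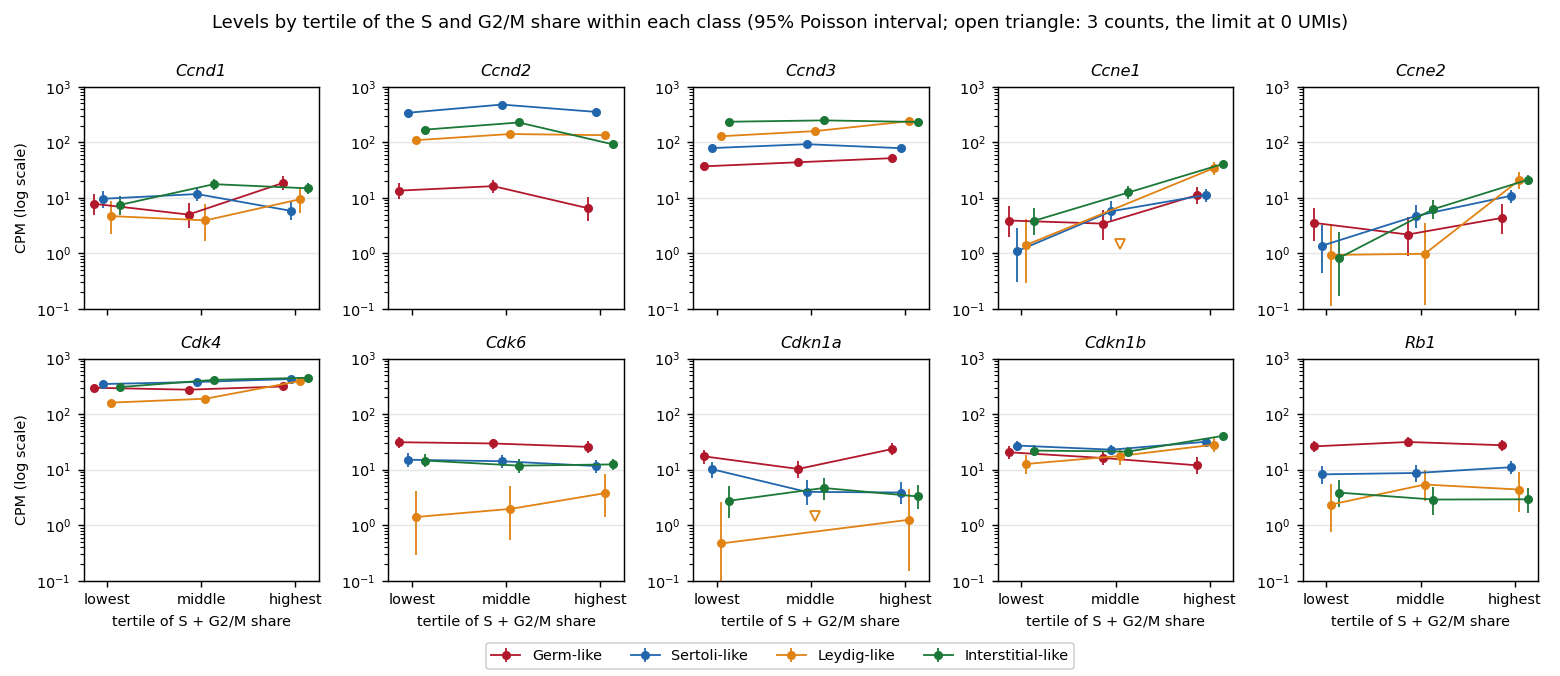
Level of each gene (CPM, log axis) in the lowest, middle and highest tertile of cells by the share of S and G2/M genes, in the 4 classes, with exact Poisson 95% intervals; an open triangle is the limit of 3 counts at 0 UMIs. *Ccne1* and *Ccne2* differed most between tertiles in the somatic classes, and the interval of the difference included 0 for *Rb1* and *Cdk6* in each class.

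Germ-like cells were checked for genes of arrest and fate. Of 10 such genes, 9 had 50 UMIs over germ-like and Sertoli-like cells. Of these, 5 were counted as higher and 2 as lower in germ-like cells (background 18.2% and 31.5% of all genes). *Nanos2*, which marks the male germ cell fate, stood at 65.1 CPM against 0.234 CPM, and *Dnmt3l*, a cofactor of DNA methylation in arrested GCs, at 17.4 against 0.234 CPM. *Dppa3* (2164 CPM) and *Pou5f1* (486 CPM), genes of early germ cells, were also higher. Both are among the germ markers that named this class, so their place among the 5 higher genes follows from the naming. *Mki67* was lower, at 35.9 against 133 CPM, and so was the mitotic kinase *Cdk1*, at 56.5 against 243 CPM, and both were lower per cell too (1.26 against 1.99 and 1.98 against 3.65 UMIs). The mitotic cyclin *Ccnb1* was higher in germ-like cells, with 153 against 53.4 CPM. *Top2a* (187 and 244 CPM) and *Pcna* (99.9 and 149 CPM) were not counted, and both were higher per cell in germ-like cells (6.57 against 3.67 and 3.51 against 2.23 UMIs). *Stra8* had 36 UMIs in germ-like and 0 in Sertoli-like cells.

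Of 33 other genes of the pathway, 31 had 50 UMIs over germ-like and Sertoli-like cells, and 5 were counted as higher and 11 as lower in germ-like cells (background 18.2% and 31.5%), with a median log2 ratio of -0.59. Genes of the INK4 family parted. *Cdkn2a* stood at 70.8 CPM in germ-like and 0.546 CPM in Sertoli-like cells, and *Cdkn2b* at 7.86 and 0.624 CPM, while *Cdkn2c* was lower (0.683 and 6.86 CPM). Counts per gene do not tell transcripts apart, so the *Cdkn2a* UMIs cannot all be taken as RNA of an INK4 inhibitor. The ubiquitin ligase genes *Mdm2* (98.96 and 32.1 CPM), which acts on p53, and *Fbxw7* (89.8 and 31.6 CPM), which acts on cyclin E, were higher, as was *Ccnh*, a partner of CDK7 (122 and 43.9 CPM). The RB relatives *Rbl1* (7.74 and 16.9 CPM) and *Rbl2* (2.05 and 12.9 CPM) were lower in germ-like cells, unlike *Rb1*. So were *E2f2*, *E2f6*, *E2f7* and *E2f8* (log2 ratios of -1.31 to -1.61), the phosphatase gene *Cdc25a* (26.2 and 57.2 CPM), *Skp2*, whose product marks p27 for degradation (10.1 and 47.7 CPM), the licensing inhibitor *Gmnn* (47.6 and 142 CPM) and *Cdk5* (14.2 and 40.7 CPM). Per cell, *Cdc25a* (0.920 and 0.858 UMIs) and *Rbl1* (0.272 and 0.253 UMIs) turned to slightly higher values in germ-like cells.

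In the smaller classes, *Ccnd1* was highest in 29 endothelial-like cells, at 254 CPM (206 to 311), and stood at 94.6 CPM (70.9 to 124) in 36 immune-like, 51.2 CPM (43.2 to 60.2) in 151 coelomic epithelium-like and 37.1 CPM (32.8 to 41.9) in 526 peritubular myoid-like cells. These values lay above the interval of each of the 4 main classes. *Cdk6* reached 94.6 CPM (70.9 to 124) and *Cdkn1a* 32.1 CPM (19.0 to 50.8) in immune-like cells. The 21 erythroid-like cells had 481 CPM (413 to 557) of *Ccnd3*, 195 CPM (152 to 245) of *Ccne1* and 51.4 CPM (30.9 to 80.2) of *Rb1*, the highest values of the 11 classes for these 3 genes. In 102 perivascular-like cells *Cdk6* stood at 39.1 CPM (28.8 to 51.8). The unnamed cluster 10 (89 cells) had 238 CPM of *Ccnd2* and the unnamed, shallow cluster 11 (62 cells, median 3148.5 UMIs) 174 CPM.

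Over the 8 named classes with at least 30 cells, the genes most like each of the 10 in log2(CPM + 5) were found among 9245 other genes and are given as a description, since the classes share a library. *Rb1* was closest to *Nln* (Pearson r = 0.988) and *Ccpg1* (0.979). *Cdkn1a* was closest to *Stk10* (0.991) and *Chd7* (0.973), and *Cdkn1b* to *Arhgef2* (0.990) and *Srgap2* (0.980). For the D-type cyclins they were *Vill* (0.981) and *B4galt6* (0.957) with *Ccnd1*, *Fndc3b* (0.982) and *Pdia4* (0.968) with *Ccnd2*, and *Phactr2* (0.981) and *Crtap* (0.976) with *Ccnd3*. *Ccne1* went with *Igbp1* (0.984) and *Cisd2* (0.982), and *Ccne2* with *Ywhab* (0.973) and *Ccdc82* (0.968). *Cdk4* went with *Nasp* and *Tmem168* (both 0.980) and *Cdk6* with *Ap2a2* (0.962) and *Ccnf* (0.947). Among the 10 genes themselves *Ccnd3* and *Rb1* ran most opposite (r = -0.90) and *Ccne2* and *Cdkn1b* most alike (0.866). Germ-like cells had the lowest *Ccnd3* (44.1 CPM) and the highest *Rb1* (28.6 CPM) of the 8 classes. The 21 erythroid-like cells, too few to be included, were high in both *Ccnd3* (481 CPM) and *Rb1* (51.4 CPM).

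The genes lie on 7 chromosomes of GRCm38 (start to end, 1-based). *Ccnd1* (chromosome 7, 144929931 to 144939925) and *Ccne1* (chromosome 7, 38097984 to 38107534) share a chromosome, as do *Ccnd2* (chromosome 6, 127125162 to 127152193) and *Cdkn1b* (chromosome 6, 134920401 to 134925513), and *Ccnd3* (chromosome 17, 47505051 to 47599691) and *Cdkn1a* (chromosome 17, 29090976 to 29100727). *Cdk4* lies on chromosome 10 (127063534 to 127067920), *Cdk6* on chromosome 5 (3341485 to 3531008), *Ccne2* on chromosome 4 (11191351 to 11204779) and *Rb1* on chromosome 14 (73183673 to 73325822). Other genes of the matrix overlap some of them in the annotation (*LTO1* with *Ccnd1*, *Bysl* with *Ccnd3*, *Ints8* with *Ccne2*, *Tspan31* with *Cdk4*, *Rcbtb2* and *Lpar6* with *Rb1*). Each of these lies on the strand opposite to the gene it overlaps, so their reads can be told apart where strand was used in counting.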

How the data were processed

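RNA of single cells from pooled control testes was measured as UMI counts per gene in 1 library, which the authors deposited as a 10x matrix of whole-number counts. The submitters' processing notes name Cell Ranger 3.0.2 and 3.1.0 with mm10 (GRCm38), the file header gives 3.1.0, and the methods name a different version, so the version used is unsure. Barcodes with fewer than 200 genes (372), likely doublets by nearest artificial neighbours (204, 4.04% of the rest) and outliers beyond 3 median absolute deviations (1025) were removed. The remaining 3820 cells were clustered with Seurat 5.3.0 and sctransform 0.4.2 in R 4.3.3 (cell cycle scores and mitochondrial share regressed, 3000 variable genes, 30 components, resolution 0.8).

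Clusters were named from marker lists where the mean log2 ratio of the markers reached 1 and at least 3 were seen in 25% of cells, limits set after the clusters had been seen. Clusters 10 and 11 passed both limits (mean log2 ratios of 1.02 and 1.03) but were left unnamed. Cluster 10 had more markers of another class than of its own among its 10 leading genes. Cluster 11 was shallow and had no Sertoli marker among its 10 leading genes. Counts were summed per class in Python 3.11.15 (pandas 2.3.3, numpy 2.4.6), doublets were sought with scikit-learn 1.9.0, and intervals came from scipy 1.17.1. Intervals were exact Poisson (levels), exact binomial (shares) or from the binomial split of counts (ratios). A difference was counted at 2-fold with 50 UMIs over both classes. On simulated counts for germ-like against Sertoli-like cells the rule was tested before use. The genes named are the 10 members, the genes of the pathway and arrest lists past 2-fold between germ-like and Sertoli-like cells, and the closest genes by Pearson r. The members and lists were chosen with earlier results of these data known. Promoter sequences are from RefSeq (GRCm38.p6), and gene coordinates from GENCODE. Alternatives were other filters, doublet rates, resolutions, normalizations, scalings and depths.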

Additional observations from a re-analysis of the deposited data

Results flagged for a closer look

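Barcodes with fewer than 200 genes were left out of every comparison. These 372 barcodes, whose UMIs were 46.8% hemoglobin and 49.2% mitochondrial, held 5 UMIs of *Ccnd2* (3.55 CPM) and 13 UMIs of *Cdk4* (9.22 CPM), more than the 3 counts that a count of 0 allows. In CPM both levels lay below those of germ-like cells (12.3 and 295 CPM). Hemoglobin and mitochondrial UMIs fill most of the total of these barcodes, which lowers the CPM of every other gene there. The levels therefore do not compare on equal terms, and they were not compared with these UMIs left out. No group of 4 or more samples existed in which a single sample could be compared with the rest.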

How the results depend on the processing

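No paired analysis was possible because there was 1 library. The number of the 10 genes at least 2-fold apart ran over the alternatives from 4 to 6 in germ-like against Sertoli-like cells, 5 to 7 against Leydig-like and 5 to 7 against interstitial-like cells. Between Sertoli-like and Leydig-like cells it was 5 (range 4 to 9), with 8 after log normalization without regression and 9 without cluster 6. Between Sertoli-like and interstitial-like cells it ran from 4 to 5. Between Leydig-like and interstitial-like cells it was 4 (range 2 to 7), with 2 after log normalization, by the mean of each cell's CPM or without cluster 5, and 7 without cluster 6. Shares of all genes are given above for the main processing and for the counts named without cluster 5 or 6. The other counts cannot be read against a background. After log normalization the log2 ratio turned to 0.61 for *Ccne1* and 0.999 for *Ccne2* in germ-like against interstitial-like cells and to 0.75 for *Ccne1* in Sertoli-like against interstitial-like cells. That clustering named 221 Leydig-like cells in place of 312 and left clusters nearest the interstitial markers unnamed, as described above. By mean UMIs per cell the log2 ratio of 4 of the 10 genes turned in germ-like against interstitial-like cells. It became 0.11 for *Ccne2*, 1.37 for *Ccnd1*, 1.38 for *Cdk4* and 0.97 for *Cdkn1b*. On that scale 5 genes turned in germ-like against Sertoli-like and 5 in Leydig-like against interstitial-like cells. Germ-like against Leydig-like and Sertoli-like against interstitial-like cells gave 2 each, and Sertoli-like against Leydig-like cells gave 0. By definition, a ratio per cell is the ratio in CPM multiplied by the ratio of mean UMIs per cell of both classes. How many of all genes turned was not counted. The log2 ratio of *Ccnd2* in germ-like against Sertoli-like cells was -4.59 with no doublets removed and -5.31 with the doublet rate doubled. With tertiles drawn at 5000 UMIs per cell, the interval of the log2 ratio moved to include 0 for *Ccnd2* in germ-like (-0.49) and Leydig-like cells (0.15), and to exclude 0 for *Cdkn1a* in germ-like cells (0.83) and for *Ccnd1* (-0.88) and *Ccnd2* (0.11) in Sertoli-like cells. Thinned to 3000 UMIs, cells with no D-type cyclin were 83.1% of germ-like, 31.3% of Sertoli-like, 40.1% of Leydig-like and 32.9% of interstitial-like cells. At 1.5-fold in place of 2-fold, the pathway genes counted were 22 in place of 12 in germ-like against Leydig-like cells and 10 in place of 6 in Sertoli-like against interstitial-like cells. Of all genes, 52.8% and 32% were counted at 2-fold in these comparisons. No share of all genes at 1.5-fold is given, so the counts at 1.5-fold cannot be read against a background. UMIs per cell, the leaving out of clusters 5 and 6 or of the highest tertile, and the adding of clusters 10 and 11 were chosen after seeing the data. Shares of cells with a UMI of a low gene are limited by depth, and 1 library gives no measure of the spread between animals.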
